A study of Mus musculus with 11 samples.

Results

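The microRNAs (miRs) of the aorta were described in the 4 mice that served as controls, before any comparison of diets. All 4 samples titled as controls on a normal diet were taken, of 11 samples in the series. The other 7 aortas came from mice on a high fat diet, 4 for 3 months and 3 for 10 months, and no group was compared with another here. The 4 mice were female and carried apoE-/-, which removes apolipoprotein E from the whole animal, and this genotype is shared by every sample of the series. They received a regular diet, their age was given as 6 to 8 weeks, and their aortas were labelled as free of atherosclerosis. The labels do not say whether that age is the one at the start or at collection, nor how long the controls were kept. Total RNA of the whole aorta was measured by PCR on 517 miR assays, with 1 mouse per array. The whole vessel was extracted, so smooth muscle, endothelium, adventitia, any fat or nerve left on it and any remaining blood entered 1 extract.

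A miR is a short RNA that lowers the output of messenger RNAs carrying a match to its seed, the bases 2 to 8 from its 5′ end. The hairpin precursor has 2 arms, and in most hairpins one arm (the guide) is kept while the other (the passenger, marked with a star in the older names used here) is mostly degraded. In the vessel wall miR-143 and miR-145 are known for keeping smooth muscle in its contractile state, and miR-126 is known as the miR of endothelial cells, made from an intron of Egfl7. apoE-deficient mice have high plasma cholesterol and develop atherosclerosis with age.

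The sequences below belong to miRs on which the ranking, the arm comparisons and the gaps in detection turn. They are RefSeq mature sequences listed with the assembly GRCm38.p6, written 5′ to 3′ with the seed in capitals. The first set shows miRs among the most abundant ones.
miR-24: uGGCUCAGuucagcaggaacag
miR-126-3p: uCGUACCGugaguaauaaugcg
miR-193b: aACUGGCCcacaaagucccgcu
miR-26a: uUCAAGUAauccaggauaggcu
miR-191: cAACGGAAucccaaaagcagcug
Another set shares the seed GUAAACA and shows that miR-384-5p, a neuronal miR, has the seed of the miR-30 family.
miR-30c: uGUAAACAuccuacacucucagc
miR-30a: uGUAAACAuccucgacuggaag
miR-30e: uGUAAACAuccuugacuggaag
miR-384-5p: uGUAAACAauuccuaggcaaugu
These share the seed AGCAGCA.
miR-16: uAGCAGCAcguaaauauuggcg
miR-15a: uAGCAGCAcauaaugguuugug
miR-195: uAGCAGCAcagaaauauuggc
These share the seed GAGGUAG of the let-7 family, in which single bases set members apart.
let-7a: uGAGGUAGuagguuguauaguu
let-7f: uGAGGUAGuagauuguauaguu
let-7e: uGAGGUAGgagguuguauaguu
let-7c: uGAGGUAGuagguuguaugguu
miR-98: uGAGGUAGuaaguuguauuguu
The last set shows arms of hairpins whose assays gave unequal readings, miR-23a, which was read in some mice only, and miR-137, which had the largest spread.
miR-199a-5p: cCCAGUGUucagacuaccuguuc
miR-199a-3p: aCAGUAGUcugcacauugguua
miR-331-5p: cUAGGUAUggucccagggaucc
miR-331-3p: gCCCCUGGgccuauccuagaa
miR-23a: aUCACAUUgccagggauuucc
miR-137: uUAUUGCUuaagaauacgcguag
Of 68 assay names looked up, 53 had a sequence in the table. Among those without one are miR-145, miR-143, miR-140, miR-30b, miR-133a, miR-709, miR-122 and miR-23b.

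The threshold cycle is the PCR cycle at which a well's signal crosses a set level. Each cycle is 1 step on a log2 scale, and an earlier cycle means more template, about 2 times more per cycle. A well was called detected below 35 cycles, and 40 stands for a well without amplification, judging from the values. By this limit 380 miRs were detected in control replicate 1, 337 in replicate 2, 360 in replicate 3 and 336 in replicate 4, a mean of 353.2 ± 21.0 (SD, n = 4 mice). All 4 mice shared 307 of the 517 assays (59.4%), and 113 (21.9%) were detected in 0 of 4 mice. A further 32 were detected in 3 mice, 24 in 2 mice and 41 in 1 mouse. The 4-of-4 class held 210 of the 335 assays of the first assay block and 97 of the 182 assays of the second.

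**Figure D1:**
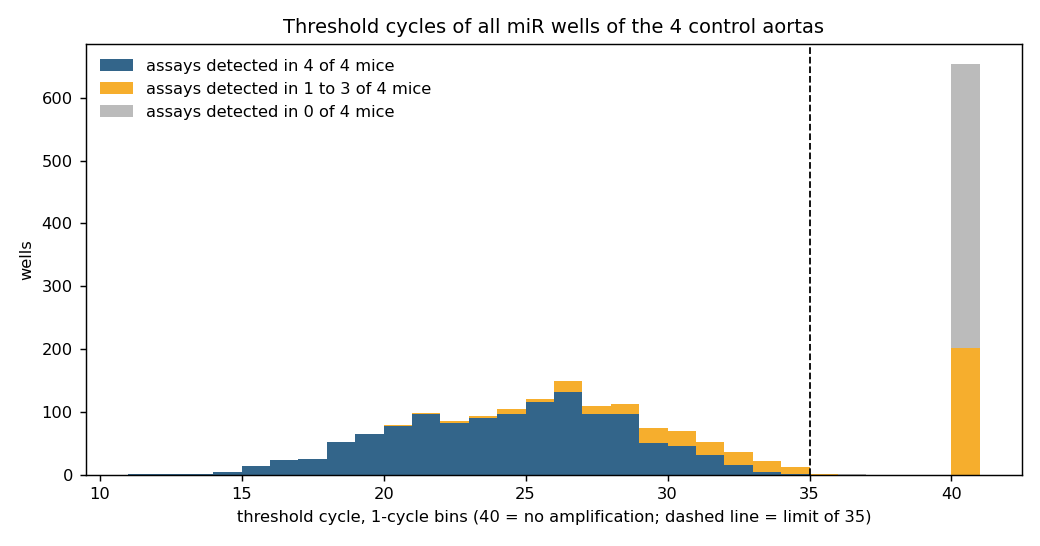
Threshold cycles of the 2068 miR wells of the 4 control aortas in bins of 1 cycle, coloured by how many of the 4 mice detected the assay; the dashed line is the limit of 35. The 653 wells at 40 stand apart from the rest, and 2 wells lie from 35 to under 40.

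A higher limit hardly mattered for these counts, as the plot of all threshold cycles shows. A lower limit of 32 cycles moved them more, to 288 assays detected in 4 of 4 mice and 137 in 0 of 4. Of 655 undetected wells, 653 stood at exactly 40. The remaining 2 were miR-363 in replicate 2 at 36.00 and miR-879 in replicate 4 at 35.03. Only 11 detected wells lay from 34 to under 35 cycles. miR-363 is therefore the one 0-of-4 assay with a value below 40, and miR-879 (33.51, 34.50 and 33.41 cycles in the other mice) is the one assay that misses the 4-of-4 class by a reading between 35 and 40. Just inside the limit, the 5 latest means among the 4-of-4 miRs belonged to miR-542-3p (31.95, 32.98, 31.32 and 32.42 cycles in replicates 1 to 4), miR-369-3p, miR-592, miR-154* and miR-802, and the latest single well among them was miR-592 in replicate 2 at 34.55.

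For the 307 miRs detected in all 4 mice the mean threshold cycle was 24.30 in replicate 1, 25.63 in replicate 2, 23.55 in replicate 3 and 24.42 in replicate 4. Replicate 2 was the latest and replicate 3 the earliest. Levels below are therefore minus the threshold cycle, centred per mouse on the mean of these 307 miRs, on a log2 scale on which 0 is that mean. Assays differ in how well they amplify, and this was not checked, so the order of miRs is an order of assay readings. Fewer cells of a type and less RNA per cell cannot be told apart in such bulk extracts.

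miR-145, the smooth muscle miR, had the earliest reading in every mouse. Its threshold cycle was 11.96 in replicate 1, 12.40 in replicate 2, 11.71 in replicate 3 and 12.39 in replicate 4, and its level was 12.36 ± 0.62 (SD, n = 4). It lay ahead of the miR in second place by 1.96 ± 0.33 on the log2 scale. If template doubles at each cycle, miR-145 alone held 46.2%, 51.1%, 37.1% and 36.2% of the summed miR template of the 4 mice. On the same assumption the 10 most abundant miRs held 76.0% (72.7% to 81.4% over mice), the 50 most abundant 95.0% and the 100 most abundant 98.8%.

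**Figure D2:**
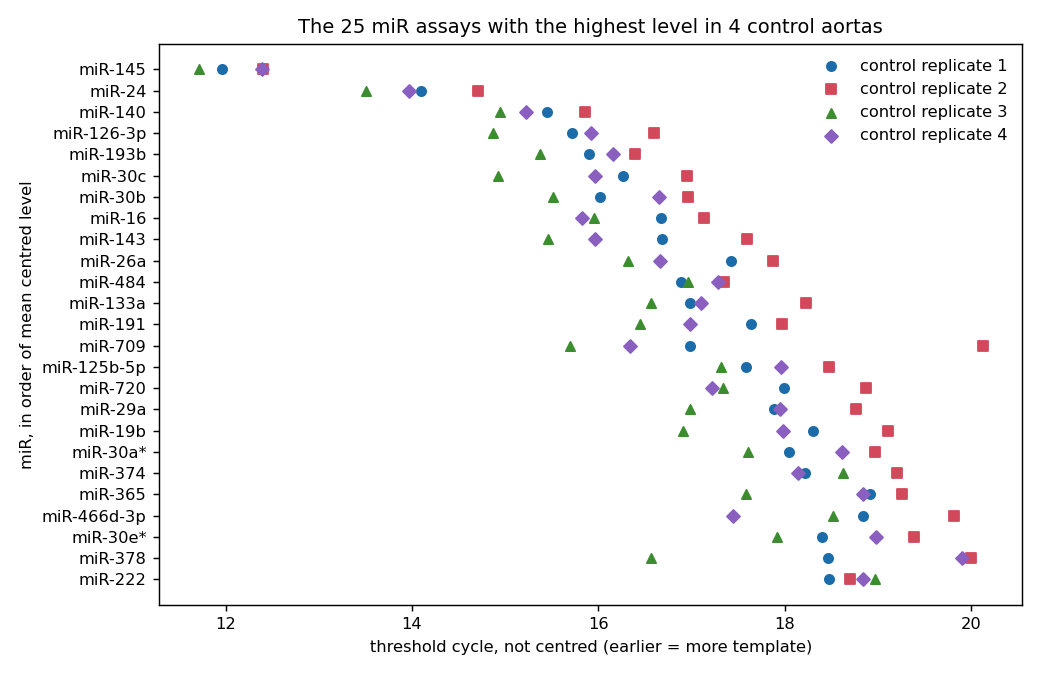
Threshold cycle of the 25 miR assays with the highest mean level, 1 point per control mouse, in order of the mean centred level. miR-145 and miR-24 stand first and second in all 4 mice, and replicate 2 reads late for miR-709, at 20.13.

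miR-24, which is made from the same precursors as miR-23 and miR-27, came second with threshold cycles of 14.10, 14.71, 13.51 and 13.97 and a level of 10.40 ± 0.38. miR-140, known from cartilage and made from an intron of Wwp2, was next with 15.45, 15.86, 14.94 and 15.22 cycles and a level of 9.11 ± 0.51. The endothelial miR-126-3p followed with 15.72, 16.60, 14.87 and 15.92 cycles and a level of 8.70 ± 0.23. Of these 4 leaders, miR-145 is known from smooth muscle and miR-126-3p from endothelium.

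The next 6 were miR-193b (8.52 ± 0.49), a miR known from brown fat and muscle, miR-30c (8.45 ± 0.29), miR-30b (8.19 ± 0.38), miR-16 (8.09 ± 0.54), miR-143 (8.05 ± 0.35) and miR-26a (7.41 ± 0.43). In each mouse the smooth muscle miR-143 was below miR-145, which is made from the same transcript, by a mean of 4.31 ± 0.78 on the log2 scale. miR-484 (7.36), the muscle miR-133a (7.25), miR-191 (7.22), miR-709 (7.19) and miR-125b-5p (6.64) followed. miR-720 (6.62), an entry later withdrawn from miRBase as a likely tRNA fragment, and miR-29a (6.58), which is known to repress collagen messages, came next. miR-19b of the miR-17 cluster had a level of 6.40. The passenger-named miR-30a* (6.17) ranked above its guide miR-30a (5.61 ± 0.20), by less than the 2.48 by which repeated wells of 1 control assay differed between blocks at most. miR-374 (5.92), miR-365 (5.83), miR-466d-3p (5.82), miR-30e* (5.80), miR-378 (5.74) and miR-222 (5.73) completed the 25. Of the 25, 7 lie in the second assay block, among them miR-709, miR-720 and miR-30a*.

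Neighbours in this order mostly did not differ beyond their spread. Of the 25 steps from one miR to the next, 4 had a mean difference above its SD over mice, and 3 had the same order in all 4 mice. Those 3 were miR-145 over miR-24, miR-24 over miR-140 (1.29 ± 0.12) and miR-143 over miR-26a (0.64 ± 0.25). Membership was steadier than order. Of the 25 miRs, 18 were among the 25 highest of every mouse, of the 10 most abundant 9, and of the 50 most abundant 41. The mean levels of the 307 miRs spanned 20.05 on the log2 scale.

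The levels of the 307 miRs correlated between mice with a Pearson r from 0.948 (replicates 1 and 4) to 0.977 (replicates 3 and 4). These values describe points that share their assays and so mostly reflect the order of miRs. The SD of the difference between a pair of mice ran from 0.88 (replicates 3 and 4) to 1.30 (replicates 1 and 4). The number of miRs that differed by over 1 on the log2 scale ran from 60 in replicates 3 and 4 to 111 in replicates 2 and 3.

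**Figure D3:**
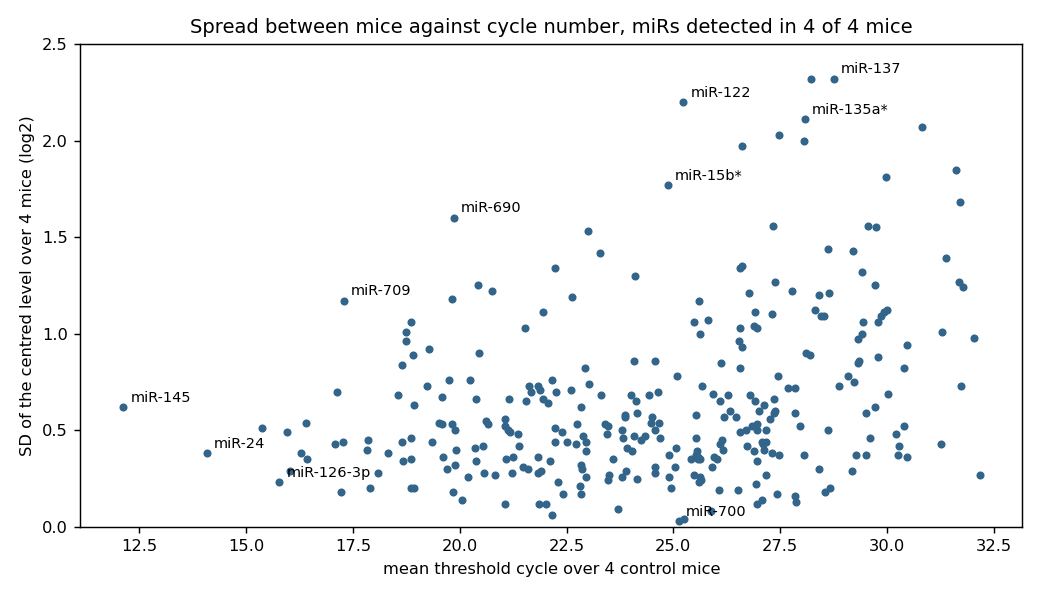
SD of the centred level over 4 control mice (log2) against the mean threshold cycle, 1 point per miR, for the 307 miRs detected in 4 of 4 mice, some of them named. Most points lie under an SD of 1 and the highest lie above 2, and the median rises from 0.49 below 28 cycles to 0.97 from 28 cycles on.

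The spread between mice had a median SD of 0.53 (quartiles 0.36 and 0.85). It was at least 1 for 61 miRs (19.9%) and at least 2 for 6. Late wells spread more: the median SD was 0.49 over the 246 miRs with a mean below 28 cycles and 0.97 over the 61 later ones. For scale, 5 small-RNA control assays occur in both assay blocks. The difference between their repeated wells of 1 mouse had a median size of 0.45 and a largest size of 2.48 (Y1 in replicate 2). These 20 differences, which hold any shift between blocks, give an SD of 0.62 for 1 well. The SD between mice was no larger than 0.62 for 181 of the 307 miRs. That value leans on Y1, whose differences had a mean size of 1.33, against 0.32 to 0.64 for the other assays. The count without Y1 was not computed.

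The steadiest miR was miR-700, with threshold cycles of 24.98, 26.25, 24.20 and 25.09 that become levels from -0.68 to -0.62 (SD 0.03). miR-485* (SD 0.04), miR-204 (0.06), miR-337-5p (0.08), miR-667 (0.09), miR-188-5p, miR-15a and miR-31* (each 0.12) followed. miR-485*, miR-337-5p and miR-667 come from the imprinted Dlk1-Dio3 locus. Among the 25 most abundant miRs, the smallest SDs belonged to miR-133a (0.18), miR-29a (0.20) and miR-126-3p (0.23). The control assay snoRNA202 had an SD of 0.10 in the first block and 0.23 in the second on the same centred scale, whereas U6 had 1.43 and 0.68.

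The largest spreads belonged to miRs that were early in 1 or 2 mice. miR-137, known from neurons, read 25.46, 31.95, 27.46 and 30.16 cycles in replicates 1 to 4 (SD of the level 2.32). miR-764-5p read 30.98, 29.92, 26.28 and 25.68 (2.32). miR-122, the main miR of hepatocytes, read 25.17, 27.62, 21.19 and 26.96 (2.20). miR-137 was highest in replicate 1, miR-764-5p in replicate 4 and miR-122 in replicate 3, so no single mouse carried all of the spread. miR-135a* (2.11), miR-383 (2.07), miR-704 (2.03), miR-467b* (2.00), miR-129-3p (1.97), miR-384-3p (1.85), miR-138* (1.81), miR-15b* (1.77) and miR-802 (1.68) completed the 12 largest. With the mean below 30 cycles the 12 also held miR-690 (18.75, 23.05, 17.36 and 20.26 cycles), miR-384-5p and the epithelial miR-141 (both 1.56).

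**Figure D4:**
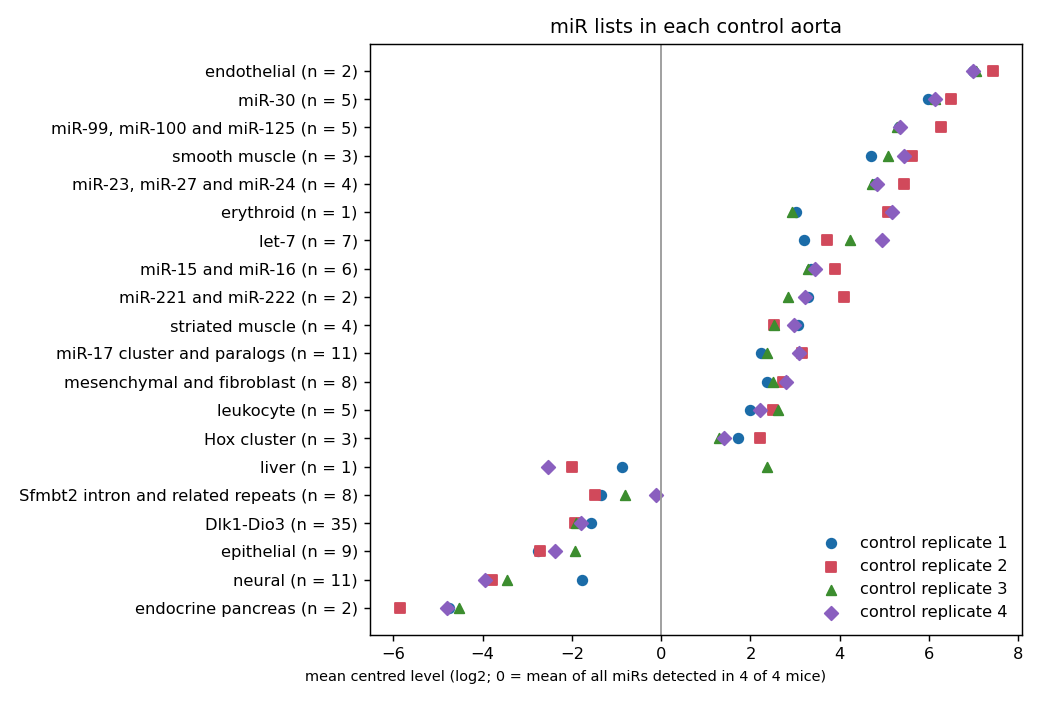
Mean centred level (log2) of the members of each miR list that were detected in 4 of 4 mice, 1 point per control mouse, with the number of members behind each mean. Replicate 1 is highest in the neural list at -1.78, replicate 3 in the liver entry (miR-122) at 2.37 and replicate 2 in the list of miR-99, miR-100 and miR-125 at 6.28.

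Defining miRs of smooth muscle and endothelium, the cells of the labelled tissue, were at the top of the ranking. All 3 smooth muscle assays were detected in 4 of 4 mice, although miR-145* stood at a level of -4.77. Both endothelial assays were detected in all mice, with miR-126-5p at 5.54 ± 0.20. The mean over the endothelial pair was 6.99, 7.43, 7.06 and 6.99 in replicates 1 to 4. Over all 307 miRs the median level was -0.41. Of all 517 assays 59.4% were detected in 4 of 4 mice, the share to set beside the counts of each list here and below.

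Striated muscle miRs were read too. miR-133a stood at 7.25 ± 0.18, miR-133b at 3.11 ± 0.48, miR-1 at 1.87 ± 0.71 and miR-206, known from skeletal muscle, at -1.16 ± 1.00. The myosin-gene miRs of heart and slow muscle were late or undetected. miR-208 was read in replicates 1 and 3 at 31.38 and 30.96 cycles, miR-208b and miR-499 in replicate 1 only at 32.57 and 31.98, and the other wells of these assays stood at 40.

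Blood-cell miRs were present in every mouse. All 5 leukocyte assays were detected in 4 of 4 mice. miR-150 of lymphocytes read 19.48, 20.61, 16.41 and 18.96 cycles (level 5.61 ± 1.06) and was highest in replicate 3. miR-223 of myeloid cells had a level of 5.23 ± 0.73, miR-142-3p 3.81 ± 0.53, and miR-155, which activated leukocytes raise, -0.09 ± 0.50. The erythroid miR-451 had levels of 3.01, 5.08, 2.92 and 5.17 in replicates 1 to 4, so replicates 2 and 4 were the higher ones. miR-486, a second erythroid miR, was read in replicates 3 and 4 (26.83 and 24.70 cycles) and stood at 40 in replicates 1 and 2. In replicates 3 and 4, where both erythroid assays were read, both were higher in replicate 4. The wells of miR-486 at 40 give no order for replicates 1 and 2.

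Among mesenchymal and fibroblast miRs 8 of 9 assays were detected in 4 of 4 mice, led by miR-29a (6.58), miR-199a-3p (4.95 ± 0.54), miR-21 (4.62 ± 0.18) and miR-214 (4.13 ± 0.41). The exception was miR-199a-5p, the other arm of the miR-199a hairpin printed above, which stood at 40 in all 4 mice while miR-199a-3p read 19.33, 19.97, 19.21 and 19.58 cycles. The same assay was read in 3 of the 7 mice on a high fat diet at 23.61 to 24.22 cycles. Within the miR-29 family, whose members share the seed AGCACCA, miR-29a stood above miR-29c (2.80) and miR-29b (-1.45).

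Markers of epithelium, neurons, liver and pancreas were lower on average than the mean of the 307 miRs, but many were detected. Of 10 epithelial assays 9 were detected in 4 of 4 mice, from miR-203 of skin epithelium (2.52 ± 0.66) through miR-182 (-0.04) and the miR-200 family (miR-200a -1.62, miR-200b -1.64, miR-200c -2.13) to miR-96 (-5.23). miR-375 of pancreatic islets stood at -4.18 ± 1.21 and miR-7a at -5.80 ± 0.42. Whether RNA of neighbouring tissue entered the extracts was not tested.

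Neural miRs were highest on average in replicate 1, although the later check for a far mouse did not flag this list mean. The 11 of 15 neural assays that were detected in all mice had a mean level of -1.78 in replicate 1, -3.78 in replicate 2, -3.45 in replicate 3 and -3.94 in replicate 4, and 10 of the 11 were highest in replicate 1. Of all 307 miRs, 60 were highest in replicate 1, 120 in replicate 2, 53 in replicate 3 and 74 in replicate 4. miR-129-3p read 23.95, 30.07, 25.53 and 26.86 cycles, and miR-384-5p, the neuronal miR with the miR-30 seed, read 24.91, 28.95, 26.88 and 28.61. miR-124, the most abundant miR of neurons, was read in replicate 1 only at 28.96 cycles, as was miR-129-5p at 29.62. miR-219 was read in replicates 1 and 4, at 30.11 and 29.80 cycles, and stood at 40 in replicates 2 and 3. miR-153 stood at 40 in all 4 mice. miR-138, outside that list, read 20.99, 24.95, 22.93 and 24.25. The exception within the neural list was miR-128a, which was lowest in replicate 1 and highest in replicate 2, with an SD of 0.44. miR-218, which led the list at a mean level of 3.42, was highest in replicate 1, with an SD of 0.52. Replicate 1 was also highest for the neural list with snoRNA202 as the reference (-9.96 against -12.01, -11.94 and -12.27).

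In replicate 3, miR-122 and a few others were higher than in every other mouse. The level of miR-122 was 2.37 in replicate 3, against -0.87, -1.99 and -2.54 in the other mice. The later check for a far mouse did not flag miR-122. Both arms of the miR-378 hairpin, which lies in the gene of the mitochondrial coactivator PGC-1β, were also highest there: miR-378 had levels of 5.84, 5.63, 6.98 and 4.52, and miR-378* read 26.96, 28.41, 23.64 and 27.25 cycles. Over all 307 miRs, 7 lay over 1 above every other mouse in replicate 3, 14 in replicate 1, 5 in replicate 2 and 13 in replicate 4. Those over 1 below every other mouse numbered 5, 6, 18 and 15 in the same order.

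Among the family lists, miR-30 was high with a small spread and let-7 had a larger one. All 5 miR-30 assays were detected in 4 of 4 mice, with a median level of 5.61 and a median SD of 0.29. All 5 assays of miR-99, miR-100 and miR-125 were highest in replicate 2, as were 120 of all 307 miRs, with list means of 5.33, 6.28, 5.29 and 5.35. The let-7 means were 3.21, 3.71, 4.23 and 4.95 in replicates 1 to 4, and 6 of the 7 members detected in all mice were highest in replicate 4, against 74 of all 307 miRs. let-7e led with 20.06, 20.97, 17.98 and 18.14 cycles, and let-7a read 21.46, 23.02, 19.27 and 19.24. For both, replicates 3 and 4 were earlier than replicates 1 and 2. let-7g (SD 0.35) and let-7i (0.55) varied less than let-7a (1.22) and let-7c (1.18).

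The miR-17 cluster and its paralogs, known for driving proliferation, had 11 of 13 assays in all 4 mice, led by miR-19b (6.40), miR-106a (4.65), miR-17 (4.59) and miR-20a (4.56). miR-18b and miR-363 were detected in 0 of 4 mice. In the miR-15 and miR-16 family all 6 assays were detected, and miR-16 (8.09) stood above miR-195 (5.63) and miR-15a (2.46), which share its seed. miR-222 (5.73 ± 0.96) stood above miR-221 (0.99 ± 0.24), its neighbour on the X chromosome. From the Hox clusters miR-10a (4.24), miR-10b (2.58) and miR-196b (-1.85) were detected in all mice.

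The imprinted Dlk1-Dio3 locus, whose miRs are made from the maternal allele, had 35 of 62 assays in 4 of 4 mice, 16 in 1 to 3 mice and 11 in 0 of 4. Its detected share of 56.5% lay close to the 59.4% over all assays, and its median SD of 0.50 close to 0.53. The list mean was -1.57, -1.92, -1.91 and -1.80 in replicates 1 to 4. Of the 35 miRs, 17 were highest in replicate 1, 5 in replicate 2, 4 in replicate 3 and 9 in replicate 4. Over all 307 miRs these counts were 60, 120, 53 and 74. miR-127 led with 20.77, 22.32, 20.25 and 21.56 cycles (level 3.25 ± 0.28), before miR-434-3p (2.18), miR-376c (1.60), miR-411 (1.48 ± 1.53) and miR-667 (0.77). miR-411 and miR-382 had the largest SDs of the list (1.53 and 1.30): miR-411 read 24.31, 25.29, 20.96 and 21.43 cycles and miR-382 read 25.02, 26.41, 22.16 and 22.81, both earlier in replicates 3 and 4. miR-379, whose hairpin neighbours that of miR-411, was also earlier in these mice (24.19, 25.50, 22.96 and 23.51 cycles) with an SD of 0.39. miR-381 and miR-136* were read in replicates 3 and 4 only, whereas miR-409-5p and miR-485 were read in replicates 1 and 2 only. miR-668, which lies in the same locus but was not on the list, had an SD of 1.43 and was lowest in replicate 4.

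The Sfmbt2 intron and related repeats form a rodent cluster of near-identical miRs. Of its 17 assays 8 were detected in 4 of 4 mice and 6 in none, against 59.4% and 21.9% of all 517 assays. The highest were miR-466d-3p (18.84, 19.82, 18.52 and 17.44 cycles, level 5.82 ± 0.84) and miR-467a* (level 2.60 ± 0.71). Assays of such copies may read more than 1 of them, which was not tested. miR-466d-5p, the other arm of miR-466d-3p, stood at 40 in all 4 mice.

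The 113 assays detected in 0 of 4 mice (21.9% of all 517) included many miRs known from other tissues. For comparison, 59.4% of all assays were detected in 4 of 4 mice. Of 21 assays for miRs of embryonic stem cells, the miR-290 and miR-302 clusters, none was detected in all mice, and 14, among them all 7 miR-302 assays, were detected in 0 of 4. The earliest reading of this list was miR-294 in replicate 3 at 30.44 cycles. Of 19 assays of the testis-expressed X-linked cluster none was detected in all mice and 13 in 0 of 4. The earliest reading there was miR-878-3p in replicate 4 at 27.34 cycles. Among the other absent assays were both arms of miR-202, known from gonads, both arms of miR-675, made from H19, and miR-98 of the let-7 family. Of the 113, 100 were detected in no mouse of the series and 13 in at least 1 of the 7 mice on a high fat diet. The earliest of those readings were 22.64 cycles for miR-297c in 1 mouse and 25 for miR-687 in 1 mouse, beside the miR-199a-5p readings above. Assays picked for 0 of 4 controls can only be read as often or more often in other mice, so these counts compare no groups. In the other direction, 285 of the 307 miRs detected in all 4 controls were detected in all 11 samples.

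Many of the 97 miRs detected in 1 to 3 mice were not faint ones near the limit. In 96 of them every undetected well stood at exactly 40, and the median of their earliest readings was 29.86 cycles. For 52 the earliest reading was below 30 cycles, for 30 below 28 and for 13 below 26. The mean cycles of the 4-of-4 miRs had quartiles of 21.60 and 27.33, so the median of 29.86 was later than the upper quartile. An earliest reading is that of 1 well and is not the same measure as a mean over mice.

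miR-23a is the clearest case of early readings beside wells at 40. It read 21.73 and 22.56 cycles in replicates 1 and 2 and 40 in replicates 3 and 4, whereas miR-27a, its neighbour on the same precursor, read 21.06, 22.21, 20.02 and 20.96 (SD of the level 0.12). miR-23b, which has the same seed, read 21.98, 22.27, 21.94 and 22.49. Both were therefore read in replicates 3 and 4, where miR-23a stood at 40.

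let-7f read 22.52, 40, 20.76 and 20.70 cycles, so replicate 2 alone lacked it. let-7a, which differs from it by G12A (let-7a base, position from the 5′ end, let-7f base), read 23.02 in replicate 2. let-7b* read 24.44, 24.62 and 23.37 cycles and 40 in replicate 4, and let-7f* read 26.24, 26.29 and 24.39 and 40 in the same mouse. These passenger arms were among the 11 miRs missed in replicate 4 only, most of which come from other hairpins.

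miR-297a* was read in replicate 1 only, at 23.56 cycles, and miR-696 in replicate 4 only, at 23.91. miR-699 read 25.54, 40, 21.15 and 22.30 cycles. miR-615-3p (24.55 and 26.09 cycles), miR-423-5p (26.31 and 28.66), miR-351 (26.33 and 28.70), miR-409-5p (26.74 and 30.21) and miR-485 (27.43 and 29.24) were read in replicates 1 and 2 and stood at 40 in replicates 3 and 4. miR-501-3p was read in replicates 1 and 3, at 26.66 and 24.36 cycles. The reason for such gaps was not tested.

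Counted by mouse, 21 miRs were detected in replicate 1 only, 4 in replicate 2 only, 14 in replicate 3 only and 2 in replicate 4 only. The number missed in a single mouse was 0 for replicate 1, 15 for replicate 2, 6 for replicate 3 and 11 for replicate 4. Replicate 1 therefore had the most lone detections and no lone gap. One well of the plant assay ath-miR159a, which has no target in mouse RNA, read 33.98 cycles in the second block of replicate 1, whereas the other 7 plant wells of the control mice stood at 40. Of the miR wells of the 4 mice, 34 were detected from 33 to under 35 cycles, around the reading of that plant well.

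Hairpins with assays for both arms were compared within each mouse. Of 101 pairs of an unstarred and a starred assay, 60 had both detected in 4 of 4 mice. The starred arm was lower in all 4 mice in 44 of these, higher in all 4 in 11 and mixed in 5. The median difference was 3.67 on the log2 scale, and in 18 pairs the starred arm was over 100 times lower. In 57 of the 60 pairs the arms lie in different assay blocks, whose scales were not matched to each other. Repeated control wells differed by up to 2.48 between blocks, and the mean difference was larger than this in 38 of the 44 pairs and in 4 of the 11. Over the 76 pairs that include assays named 5p and 3p, the levels of the arms moved together only weakly across mice (r = 0.25 over 304 values of deviation from the pair members' means, which share mice and centring).

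The widest gap was miR-145 over miR-145* by 18.18, 17.62, 16.53 and 16.18 on the log2 scale (17.13 ± 0.93). miR-24 over miR-24-1* (12.85 ± 0.97), miR-191 over miR-191* (12.52 ± 1.22), miR-16 over miR-16* (12.28 ± 0.62), miR-30b over miR-30b* (11.82 ± 1.24), miR-218 over miR-218-2* (10.62 ± 0.92), miR-21 over miR-21* (10.54 ± 0.65) and miR-125b-5p over miR-125b-3p (10.22 ± 0.26) followed. All 8 held in 4 of 4 mice. The gap of miR-24 over its other starred assay, miR-24-2*, was 7.32 ± 0.46, and that of miR-218 over miR-218-1* was 9.40 ± 0.73. miR-125b*, another passenger assay of miR-125b, stood at a level of -0.41, above miR-125b-3p at -3.58, and was not paired.

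In other pairs the starred arm, or the 3p arm of pairs named 5p and 3p, was the higher one. Pairs named 5p and 3p have no star, so for them this order says nothing of guide and passenger. miR-331-5p lay below miR-331-3p, printed above, by 8.38, 9.28, 8.72 and 8.49 (mean -8.72 ± 0.40). miR-7a lay below miR-7a* by 7.33, 8.40, 7.80 and 7.60 (-7.78 ± 0.45), although miR-7a is the arm usually taken as the guide. miR-142-5p against miR-142-3p (-6.70 ± 1.13), miR-877 against miR-877* (-5.32 ± 0.83), miR-434-5p against miR-434-3p (-4.82 ± 0.76), miR-467a against miR-467a* (-4.30 ± 0.75), miR-126-5p against miR-126-3p (-3.16 ± 0.10) and miR-34c against miR-34c* (-2.95 ± 1.23) completed the 8 most negative differences. The difference of the miR-126 arms was the steadiest of these, at -3.18, -3.19, -3.26 and -3.02.

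In 8 starred pairs the unstarred arm was detected in 4 of 4 mice and the starred arm in 0 of 4: miR-10a, miR-200c, miR-374, miR-382, miR-431, miR-433, miR-467e and miR-708. The reverse occurred for miR-154, whose starred arm read 31.45, 32.50, 30.23 and 32.72 cycles. As a class, starred assays were detected about as often as the others: 68 of 110 (61.8%) in all 4 mice against 239 of 407 (58.7%). Their median level was lower, -2.09 against 0.43.

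**Figure D5:**
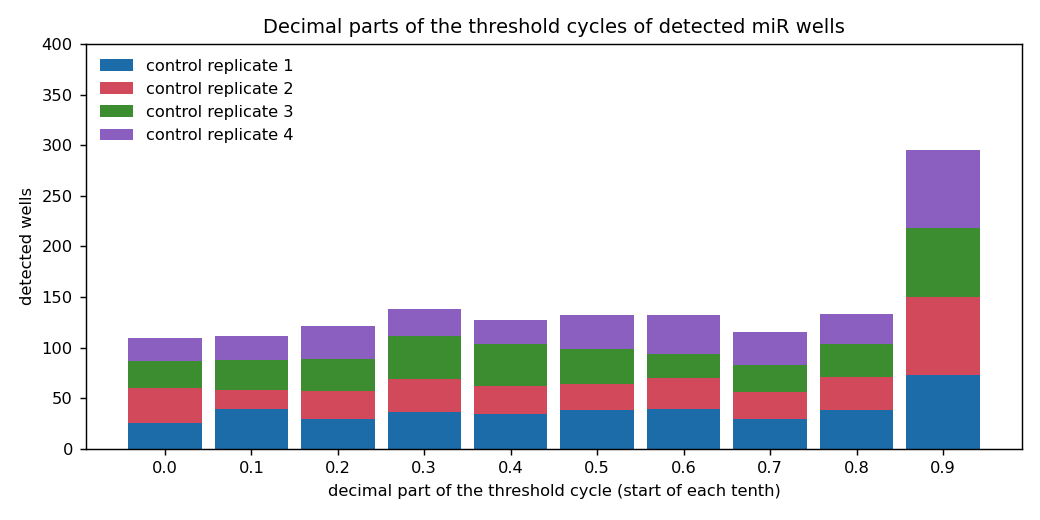
Decimal part of the threshold cycle of the 1413 detected miR wells of the 4 control mice, in steps of 0.1 cycle, stacked by mouse. The last step holds 295 wells, and each of the others holds 109 to 138.

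The decimals of the threshold cycles were uneven. Of the 1413 detected wells 295 (20.9%) had a decimal part from 0.9 to under 1.0, where an even spread would give 10%, and the other steps of 0.1 held 109 to 138 wells each. The share was 19.2%, 22.8%, 18.9% and 22.9% in replicates 1 to 4, so every mouse had it. It was 24.2% in the first block and 14.3% in the second, and 16.1% in the 7 mice on a high fat diet. Small differences in cycle between wells carry this unevenness, and its cause was not tested.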

How the data were processed

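The authors deposited a table of threshold cycles on a log2 scale, not normalized, with 530 rows in 2 assay blocks (517 miR assays and 13 control wells). A second deposited table of 519 rows on the log2 scale equals, up to rounding, the cycle minus the mean of snoRNA202 and snoRNA429 in all 11 samples, as found by setting both tables side by side. Per the labels, mirVana was the extraction kit, and per the design text only RNA with an integrity number above 8 went onto arrays. For the PCR system, the make was not given in the sources used here. Groups and replicate numbers were taken from the sample titles, with 1 mouse behind every sample.

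From the deposited log2 values, detection (below 35 cycles), levels (minus the cycle, centred per mouse on the 307 miRs detected in 4 of 4 control mice) and SDs were computed with Python 3.11.15, numpy 2.4.6 and pandas 2.3.3, and figures drawn with matplotlib 3.10.9. Shares assume a factor of 2 per cycle. The depth of a well is its cycle number, and 4 mice limit the precision. No group was compared and no p-value computed; the only test was a Dixon check for a mouse far from the other 3. The SD calculation was tested on simulated data. Named miRs are the 25 highest, the 8 smallest and 12 largest SDs, the 12 largest SDs with a mean below 30 cycles, 5 miRs beside the limit, 8 arm pairs in each direction and up to 5 members of each of 22 lists with those at 0 of 4; some of these are only counted above, and miRs outside the rule (miR-138 and those read in 1 to 3 mice among them) were named after their values were seen. The members, lists and rules were chosen with earlier results of these data known. Alternatives were other centrings and limits, block-wise centring, quantile normalization, the deposited values, other factors per cycle and leaving out each mouse. Sequences were copied from RefSeq tables listed with GRCm38.p6, and no coordinates are given.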

Additional observations from a re-analysis of the deposited data

Results flagged for a closer look

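A sample far from the other 3 was looked for in 127 values: the levels of 107 named miRs, the list means, the number of miRs detected and the mean cycle. Such a mouse was found in 4 of them. At about 1 in 20, chance would give 6 among independent values. These values share mice, centring and members, and some miRs were picked by their SD, so the 2 counts cannot be compared. All 4 were control replicate 2. Its level was 4.32 for miR-30d against 3.71 to 3.80 in the other mice, 7.43 for the endothelial list mean against 6.99 to 7.06, 6.28 for the mean of miR-99, miR-100 and miR-125 against 5.29 to 5.35, and 5.43 for the mean of miR-23, miR-27 and miR-24 against 4.73 to 4.84. Replicate 2 also had the latest mean cycle, 25.63. It was the highest mouse for 33 of the 50 most abundant miRs and for 9 of the 50 least abundant, and the lowest for 2 and 20 of them. Over all 307 miRs it was highest for 120 and lowest for 62. With snoRNA202 as the reference, replicate 2 was again highest for these 3 lists, at -0.79, -1.94 and -2.80. The part of RNA amount or amplification in this was not tested.

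A control assay outside the miR measurement gave the other signal: the plant assay ath-miR159a in the second block of replicate 1 read 33.98 cycles, while its other wells in the control mice stood at 40.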

How the results depend on the processing

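The counts of miRs detected in 4 of 4 mice (307) and in 0 of 4 (113) stayed within 1.5 times under every alternative. They were 288 and 137 at a limit of 32 cycles, 300 and 125 at 33 (chosen after seeing the data), 308 and 112 at 38 or any cycle below 40, and 307 to 322 and 115 to 134 with a mouse left out. The median SD of 0.53 became 0.67 with the small-RNA control assays as the reference, 0.58 with snoRNA202 alone (chosen after seeing the data), 0.92 with no centring, 0.51 at a limit of 32 cycles and 0.57 from the range, and 0.49 to 0.53 with a mouse left out. It was 0.52 with the other centrings. The 25 most abundant miRs shared 23 to 25 members with each alternative ranking. The share of the 10 most abundant fell from 76.0% to 70.6% at a factor of 1.9 per cycle and 64.1% at 1.8, that of the 50 most abundant from 95.0% to 93.0% and 90.1%, and with a mouse left out they ran from 74.2% to 77.2% and from 94.6% to 95.3%. The 44 pairs with a lower starred arm became 67 of 89 pairs with undetected wells set to 35, 35 with each block centred by itself, and 45 to 49 with a mouse left out. No groups were compared, so no paired test of groups was possible. Neighbours in the ranking and arms were compared within each mouse, with no test. The late wells limit the precision of faint miRs, and 4 mice that of every SD.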
